A study of Mus musculus with 4 samples.

Results

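The miR-103 and miR-107 family was followed in myotubes of C2C12, a line of mouse skeletal myoblasts that fuse when serum is lowered. Its 5 mature members, miR-103-3p, miR-103-1-5p, miR-103-2-5p, miR-107-3p and miR-107-5p, were picked by name from 869 miRNAs with reads in any of 4 samples. The choice set no filter on level or change, but it was made with earlier results of these data known. All samples carry the strain background label 129/Rej and the same cell line. They were kept in differentiation medium with horse serum and taken on day 6, in 2 samples without guanidinoacetic acid (NC) and 2 samples with 20 mM guanidinoacetic acid (GAA), the direct precursor of creatine. A single cell line was used, and nothing in the labels or methods says that samples of a group were separate cultures, so the p-values measure only the spread between these samples, which may be technical. The deposited unit is log2(RPM + 1), where RPM is the reads of a miRNA per 1000000 mappable reads, and a miRNA without reads has no row. Where values of a group are given as a pair, they are those of replicate 1 and then replicate 2.

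A miRNA is a short RNA cut from a hairpin, and bases 2 to 8 of the loaded strand, its seed, lead the pairing to target mRNAs. The hairpins of this family lie in introns of the Pank genes, which encode pantothenate kinases, the enzymes of the first step of coenzyme A synthesis. In mouse liver and fat, miR-103 and miR-107 are known for lowering insulin sensitivity, with caveolin-1, a regulator of the insulin receptor, as a target. The 3p strand is the one mainly loaded, and the 5p strand is the partner that is usually degraded.

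The mature sequences are shown because the comparison of the paralogs rests on a single base. They come from the RefSeq table for GRCm38.p6, in which all 5 members were matched, and the capitals mark the seed.
miR-103-3p: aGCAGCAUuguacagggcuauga
miR-107-3p: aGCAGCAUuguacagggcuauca
miR-103-1-5p: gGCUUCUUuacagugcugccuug
miR-103-2-5p: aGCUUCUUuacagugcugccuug
miR-107-5p: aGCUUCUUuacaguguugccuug

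Counted from 1 at the 5′ end, the 3p strands differed by G22C between miR-103-3p and miR-107-3p, outside the seed they share. Of 1679 mature mouse miRNAs in the table, 2 (0.119%) have the seed GCAGCAU, and both are members. The 5p strands share the seed GCUUCUU, with G1A between miR-103-1-5p and miR-103-2-5p and C16U between miR-103-2-5p and miR-107-5p. Each member has 23 bases, so levels in RPM can be set side by side without a correction for length. A read that ends before base 22, or that has an error there, fits both 3p strands, so the split of reads between the paralogs depends on how such reads were assigned, which is not given in the sources used here.

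The precursor hairpins are shown because miR-103-3p has more than 1 source, and the capitals mark the 5p strand (bases 15 to 37) and the 3p strand (bases 52 to 74).
Mir103-1: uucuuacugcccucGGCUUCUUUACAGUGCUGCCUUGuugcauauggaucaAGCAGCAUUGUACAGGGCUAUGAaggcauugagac
Mir103-2: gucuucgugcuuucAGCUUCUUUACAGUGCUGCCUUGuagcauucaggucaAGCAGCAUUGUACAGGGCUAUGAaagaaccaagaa
Mir107: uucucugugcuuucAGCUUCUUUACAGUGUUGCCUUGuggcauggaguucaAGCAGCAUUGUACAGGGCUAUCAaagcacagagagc

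Mir103-1 lies at chr11:35782396-35782481 on the plus strand, in intron 5 of Pank3. Mir103-2 lies at chr2:131288052-131288137 on the plus strand, in intron 5 of the principal transcript of Pank2. Mir107 lies at chr19:34820687-34820773 on the minus strand, in intron 5 of the principal transcript of Pank1. In each case the principal host transcript has 7 exons, the host runs on the same strand, and no other gene of the GENCODE M21 annotation overlaps the hairpin. The hairpins were 80.2% identical between Mir103-1 and Mir103-2, 80.5% between Mir103-1 and Mir107 and 83.9% between Mir103-2 and Mir107. The 3p strand of Mir103-1 and Mir103-2 is the same, so only the 5p strands can tell the Pank3 copy from the Pank2 copy.

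The mappable reads per sample lay between 4732359 and 5657704, obtained from the equal steps in which RPM rose. MiRNA reads made up 33.6% and 43.6% of them in NC, against 56.3% and 50.4% in GAA. Both GAA samples thus had the larger miRNA fraction, and each member is given both in RPM and in ppm, its part of 1000000 summed miRNA RPM. Some rows of different name, such as miR-199a-3p and miR-199b-3p, matched in mean level and in difference between groups. If such rows hold the same reads, the miRNA sums count them more than once, which was not tested. All 7 miRNAs of a skeletal muscle list were found in every sample. They summed to 10480 and 13715 RPM in NC and to 11217.5 and 10533 RPM in GAA. The groups overlapped in RPM. This sum was not taken as a share of miRNA reads, whose fraction was larger in both GAA samples, so it does not show a steady share. A sum can also hide changes of single miRNAs, some of which are named here after their values were seen. The GAA minus NC difference of log2(RPM + 1) was -2.62 in miR-208b-3p, -0.77 in miR-1a-3p, -0.55 in miR-133a-3p, -0.46 in miR-206-3p and -0.25 in miR-133b-3p. In miR-486a-5p it was 0.12, and for miR-499-5p, also of this list, it is not given. The adjusted p of the miRNAs given was 0.21 to 0.76 with limma, so none was called in RPM. On log2(ppm + 1) the differences were, in the same order, -3.30, -1.26, -1.02, -0.94 and -0.73, and -0.36 for miR-486a-5p. Each list for another cell type summed to at most 59.8 RPM. The neuron list (2 of 2 found in every sample) was the largest of these, at 28.0 and 41.4 RPM in NC and 59.8 and 43.1 RPM in GAA. Its miR-124-3p was near the floor, with a mean log2(RPM + 1) of 0.31 over the 4 samples, so this sum was almost all miR-9-5p. The red blood cell list (2 of 2 found in every sample) summed to 7.11 and 2.75 RPM in NC against 0.898 and 0.884 RPM in GAA, and the white blood cell list (2 of 4 found in every sample) to 7.72 and 8.24 RPM against 20.1 and 15.0 RPM. The liver marker miR-122-5p was at 0 in both NC samples and at 3.05 and 0.354 RPM in GAA. The part of these markers in the values below was not tested. Fewer cells with a miRNA and less of it per cell cannot be told apart in such bulk samples.

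MiR-103-3p was the most abundant member and ranked 45 of 869 by mean RPM. It stood at 948 and 1314 RPM in NC and at 1581 and 1209 RPM in GAA. The groups overlapped, since GAA-2 lay below NC-2, and the means were 1131 ± 259 RPM in NC and 1395 ± 263 RPM in GAA (SD, n = 2 each). Its log2 fold change, GAA minus NC on log2(RPM + 1), was 0.31 with an SE of 0.26 and a 95% interval from -0.41 to 1.03. Its adjusted p was 0.52 with limma over all 869 miRNAs. The log2 fold change was 0.073 without NC-1, 0.54 without NC-2, 0.12 when GAA-1 was left out and 0.50 when GAA-2 was left out.

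MiR-107-3p, the Pank1 member, ranked 87. It stood at 252 and 266 RPM in NC and at 356 and 338 RPM in GAA. Both GAA samples lay above both NC samples, with means of 259 ± 9.80 RPM and 347 ± 12.4 RPM (SD, n = 2 each). The log2 fold change was 0.42 with an SE of 0.15 and a 95% interval from 0.015 to 0.82. Its unadjusted p was 0.045 and its adjusted p 0.28 with limma, so it did not pass the threshold of an FDR under 0.01 with an absolute log2 fold change above 1.

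Neither 3p arm was called in RPM, beside 0 of 869 miRNAs called in all (0%), and 152 of the 869 had an unadjusted p under 0.05 in limma. Both GAA samples exceeded both NC samples in 63.4% of the 410 miRNAs with a mean of at least 1 RPM, and both fell short of them in 3.41%. The order seen for miR-107-3p was therefore that of most measured miRNAs. The median log2 fold change of the 410 was 0.49, with quartiles of 0.25 and 0.71, and 90% of them had a positive value. The values of miR-103-3p and miR-107-3p were both below this median and inside the quartiles.

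**Figure D1:**
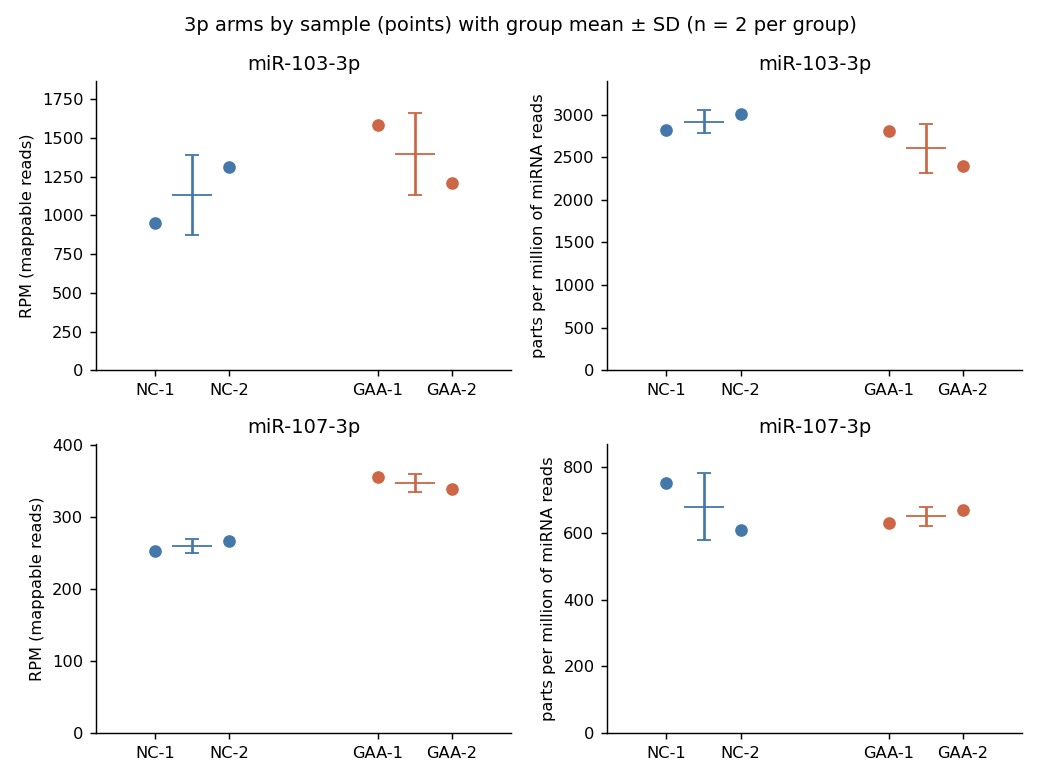
MiR-103-3p (top) and miR-107-3p (bottom) in each sample, in RPM (left) and in ppm of the summed miRNA RPM (right), with points for samples and bars for the group mean ± SD (n = 2 per group). In RPM miR-107-3p was higher in both GAA samples and miR-103-3p overlapped, while as a share miR-107-3p overlapped and miR-103-3p was lower in both GAA samples.

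As a share of miRNA reads, miR-103-3p stood at 2822 and 3011 ppm in NC and at 2808 and 2399 ppm in GAA. The GAA samples were the lower ones, but GAA-1 and NC-1 were within counting error, with 95% Wilson intervals of 0.275 to 0.287% and 0.274 to 0.290% of miRNA reads. These intervals cover counting error only, and the fractional reads described below were rounded for them. The means were 2917 ± 133 ppm in NC and 2604 ± 289 ppm in GAA (SD, n = 2 each). The log2 fold change of the share was -0.17 with an SE of 0.19 and a 95% interval from -0.59 to 0.26, and the adjusted p was 0.78 with limma. It was -0.28 without GAA-1, -0.054 without GAA-2, -0.21 without NC-1 and -0.12 without NC-2.

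The share of miR-107-3p was 752 and 610.0 ppm in NC and 632 and 671 ppm in GAA. The GAA samples lay between the NC samples, with means of 681 ± 100 ppm in NC and 651 ± 27.8 ppm in GAA (SD, n = 2 each). The log2 fold change of the share was -0.057 with an SE of 0.19 and a 95% interval from -0.49 to 0.38, and the adjusted p was 0.93 with limma. Without NC-1 this value turned to 0.094, and without NC-2 it was -0.21.

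On the share scale, 1 of 869 miRNAs was called (0.115%). It was miR-208b-3p, a muscle miRNA outside the family that is named here after its values were seen, and the count was 0 when any of the 4 samples was left out. Both GAA samples exceeded both NC samples in 23.7% of the 410 miRNAs and fell short of them in 19.0%, and the order of miR-103-3p was thus not rare. The median log2 fold change of the 410 shares was 0.046, with quartiles of -0.17 and 0.32. Thus the sign of the log2 fold change differed between the scales for both 3p arms, and neither sign was backed by a test that passed.

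**Figure D2:**
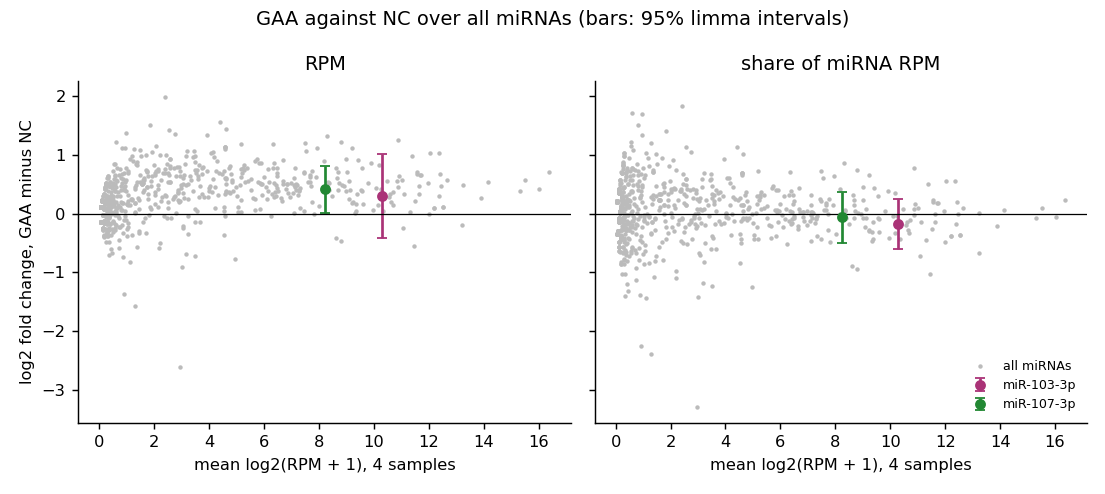
Log2 fold change, GAA minus NC, of 869 miRNAs against their mean log2(RPM + 1), in RPM (left) and as a share of miRNA RPM (right), with 95% limma intervals for the 3p arms of the family. Most miRNAs lie above 0 in RPM, with a median of 0.49 among the 410 with a mean of at least 1 RPM, and around 0 as a share, with a median of 0.046. Both arms lie inside the cloud.

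The 3p arms together made up 0.357% and 0.362% of miRNA reads in NC, against 0.344% and 0.307% in GAA. Both GAA samples were lower, with means of 0.360 ± 0.00333% and 0.326 ± 0.0261% (SD, n = 2 each). In RPM the sum was 1200.2 and 1580.4 in NC and 1937 and 1547 in GAA, and the groups overlapped. An exact two-sided permutation test gave p = 0.333 for the share and p = 0.667 for the sum in RPM. With 2 samples against 2, 0.333 is the smallest p it can give.

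The paralogs were then compared within each sample, where the divisor cancels. MiR-107-3p made up 21.0% (95% Wilson interval 20.0 to 22.1%) and 16.8% (16.0 to 17.7%) of the 3p reads in NC, and 18.4% (17.6 to 19.1%) and 21.9% (21.0 to 22.7%) in GAA. The intervals of the NC samples did not overlap, nor did those of the GAA samples, and the groups overlapped. As deposited, miR-103-3p exceeded miR-107-3p by 3.76-fold and 4.94-fold in NC and by 4.45-fold and 3.58-fold in GAA. The log2 ratio of miR-107-3p to miR-103-3p averaged -2.106 ± 0.279 in NC and -1.995 ± 0.222 in GAA (SD, n = 2 each). Within replicate numbers the GAA minus NC difference was -0.24 for number 1 and 0.47 for number 2, of opposite sign. The mean difference of 0.11 was smaller than either SD, and the exact two-sided permutation test gave p = 0.667. Leaving out NC-1 moved the difference to 0.31 and leaving out GAA-1 to 0.27, whereas it was -0.086 without NC-2 and -0.046 without GAA-2.

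The size of the ratio depends on how reads of the 2 miR-103 hairpins were treated. MiR-103-3p corresponded to 4667.5 and 6219 reads in NC and 8802.5 and 6840.5 reads in GAA, whereas miR-107-3p gave the whole numbers 1243, 1260, 1980 and 1913. Of 36 detected miRNAs with 2 hairpins in the RefSeq table, 25 were off whole reads by more than 0.02 reads in at least 1 sample, against 8 of 678 with 1 hairpin. The deposited value can therefore be a mean over hairpins or a split of shared reads, and the rule was not given in the sources used here. If it held the part of only 1 of the 2 hairpins, the level of miR-103-3p would have to be doubled, which would bring miR-107-3p to 11.8% and 9.20% of the 3p reads in NC and 10.1% and 12.3% in GAA. Fold changes between samples do not depend on this factor.

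**Figure D3:**
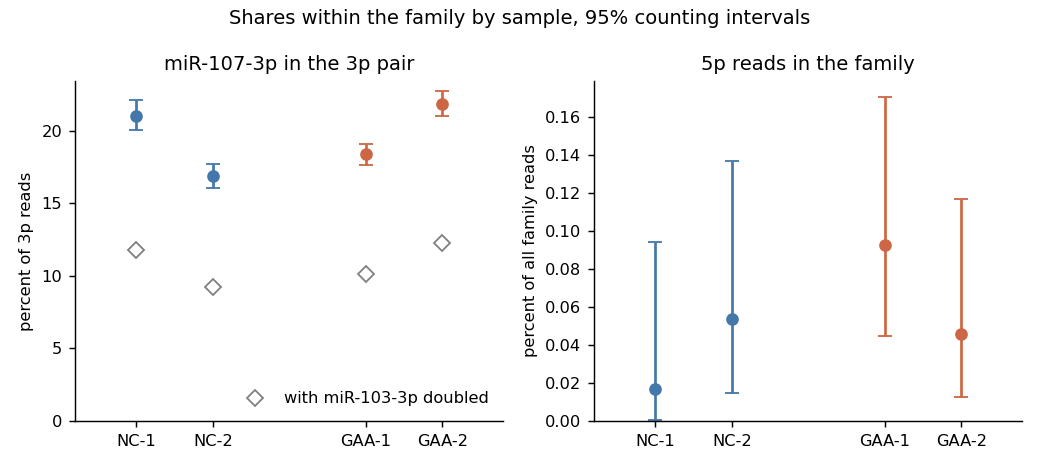
Percent of 3p reads from miR-107-3p (left, 95% Wilson intervals, open diamonds with miR-103-3p doubled) and percent of all family reads from the 5p strands (right, 95% exact binomial intervals) in each sample. Shares of miR-107-3p range from 16.8 to 21.9% with overlapping groups, and the 5p intervals of all 4 samples overlap.

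The 5p strands were at the limit of detection. MiR-103-1-5p, from the Pank3 intron, had no read in NC-1 and 1 read in each of the other samples. MiR-103-2-5p, from the Pank2 intron, had 0 and 2 reads in NC and 3 and 3 reads in GAA. MiR-107-5p, from the Pank1 intron, had 1 and 1 read in NC and 6 and 0 reads in GAA.

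All members had a row in NC-2 and GAA-1, 4 of 5 in GAA-2 and 3 of 5 in NC-1. Taken as 3 reads, the limit that a count of 0 allows was 0.000181% of miRNA reads in NC-1 and 0.000105% in GAA-2, and the upper end of the two-sided 95% exact binomial interval was 0.000223% and 0.000129%. The highest level of any 5p strand was 1.08 RPM, in GAA-1. Because 11 of the 12 values were at 3 reads or fewer, no fold change is given for these strands, and the share of miR-103 made from Pank3 or Pank2 was not detectable at this depth.

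Summed over the hairpins, 5p strands made up 0.0169% and 0.0535% of the family's reads in NC and 0.0927% and 0.0457% in GAA. The exact binomial intervals were 0.000428 to 0.0942%, 0.0146 to 0.137%, 0.0444 to 0.170% and 0.0124 to 0.117%. They overlapped in all samples, and the 5p sum rested on 1, 4, 10 and 4 reads. The 3p strand thus outnumbered the 5p strand in every sample, while no difference between NC and GAA in this share was detectable.

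The bases AGCAGC at the start of the 3p strands also open the miR-15 and miR-16 group, with a shift of 1 base. The sequences of 4 of its members are shown with these bases in capitals.
miR-103-3p: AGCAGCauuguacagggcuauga
miR-107-3p: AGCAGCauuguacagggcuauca
miR-16-5p: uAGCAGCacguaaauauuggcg
miR-15a-5p: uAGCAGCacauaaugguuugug
miR-322-5p: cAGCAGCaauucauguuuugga
miR-503-5p: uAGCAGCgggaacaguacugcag

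AGCAGC within bases 1 to 9 occurs in 15 of the 1679 mature miRNAs (0.893%). A set of 7 such miRNAs was described beside the family, namely miR-15a-5p, miR-15b-5p, miR-16-5p, miR-195a-5p, miR-497a-5p, miR-322-5p and miR-503-5p. The miR-15 and miR-16 group is known for repressing cyclins and other genes of cell division, and miR-322 and miR-503 for acting in myoblast differentiation. All 7 were detected with a mean of at least 1 RPM, and none was called on either scale.

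In RPM, 4 of the 7 were higher in both GAA samples, 3 overlapped, and the median log2 fold change was 0.39, where 63.4% of all 410 miRNAs were higher in both. As a share, 1 was higher in both GAA samples, 4 were lower in both and 2 overlapped, with a median of -0.078, where 23.7% of the 410 were higher and 19.0% lower. The medians of all 410 miRNAs were 0.49 and 0.046 on these scales. For the pair of 3p arms the medians were 0.36 and -0.11.

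MiR-16-5p, the most abundant of the group, stood at 3976 and 4699 RPM in NC and 7624 and 6335 RPM in GAA. It was the only one of the 7 that was higher in both GAA samples on both scales, with 11841 and 10767 ppm against 13541 and 12572 ppm. Its log2 fold change was 0.68 ± 0.20 (SE) in RPM with an adjusted p of 0.25, and 0.21 ± 0.20 as a share with an adjusted p of 0.78, both from limma. Like miR-103-3p it has 2 hairpins and values on fractional reads.

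MiR-322-5p stood at 899 and 1050.4 RPM in NC and 1272 and 803 RPM in GAA, and the groups overlapped. Its share was 2678 and 2407 ppm in NC and 2259 and 1594 ppm in GAA, lower in both GAA samples as for miR-103-3p. The log2 fold change of the share was -0.42 ± 0.22 (SE), with an adjusted p of 0.71 from limma. MiR-503-5p, the least abundant, was at 3.86 and 5.49 RPM in NC and 4.67 and 4.07 RPM in GAA.

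**Figure D4:**
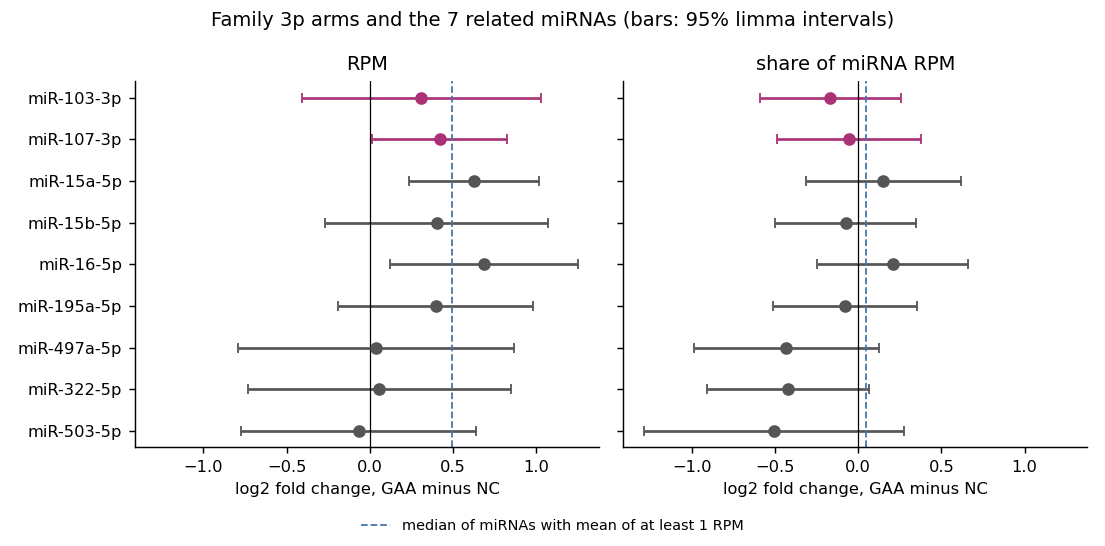
Log2 fold change, GAA minus NC, of the family's 3p arms (purple) and the 7 related miRNAs (grey), in RPM (left) and as a share of miRNA RPM (right), with 95% limma intervals and the median of the 410 miRNAs with a mean of at least 1 RPM as a dashed line. On the share scale all intervals include 0; in RPM those of miR-107-3p, miR-15a-5p and miR-16-5p lie above 0, and none of the 9 passed the threshold after adjustment.

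A second list held 16 other miRNAs linked to insulin and lipid metabolism. All 16 had reads in at least 1 sample, and 12 had a mean of at least 1 RPM. None was called on either scale. In RPM, 11 of the 12 were higher in both GAA samples and 1 overlapped, with a median log2 fold change of 0.51, beside 63.4% of the 410 that were higher. As a share, 1 was higher, 2 were lower and 9 overlapped, with a median of 0.035, beside 23.7% higher and 19.0% lower among the 410. Both medians were close to those of all 410 miRNAs.

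The most abundant of this list were well above the family. MiR-27b-3p, a regulator of lipid genes, stood at 38906 and 38058 RPM in NC and 55847 and 58502 RPM in GAA. MiR-143-3p, which is known for impairing insulin signalling in mouse liver, stood at 31354 and 40011 RPM in NC and 42646 and 50968 RPM in GAA. These values separate the groups in RPM, as for miR-107-3p.

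MiR-26a-5p, a regulator of hepatic insulin sensitivity, stood at 14724 and 15365 RPM in NC and 23856 and 20141 RPM in GAA. MiR-378a-3p, from an intron of Ppargc1b, stood at 6869 and 9605 RPM in NC and 12568 and 10469 RPM in GAA. As shares, the groups of all 4 overlapped, as for miR-107-3p, with log2 fold changes of 0.094 for miR-27b-3p, -0.080 for miR-143-3p, 0.067 for miR-26a-5p and 0.021 for miR-378a-3p.

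The miRNAs with the most similar patterns were sought among 128 miRNAs with a mean of at least 100 RPM, by the root mean square difference of log2(RPM + 1) centred on its own mean over 4 samples. For miR-103-3p these were miR-181d-5p (0.050), miR-30a-5p (0.057), miR-15b-5p (0.061), miR-34c-5p (0.065) and miR-378c (0.072). Their shared pattern was lowest in NC-1 and highest in GAA-1, with NC-2 and GAA-2 between. For miR-107-3p they were miR-214-3p (0.050), miR-532-5p (0.051), miR-99a-5p (0.062), miR-872-5p (0.070) and miR-152-3p (0.071).

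These 5 and miR-107-3p had both NC samples below and both GAA samples above their mean. No miRNA was on both lists. The likeness rests on 4 points that share their library and divisor, and it is a description only.

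**Figure D5:**
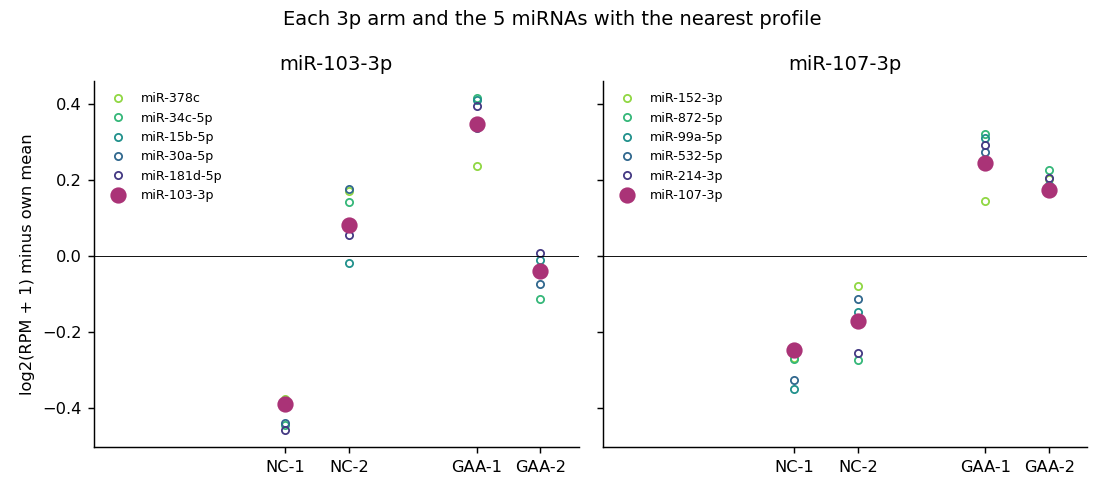
Log2(RPM + 1) minus its own mean over the 4 samples for miR-103-3p (left) and miR-107-3p (right), as filled points, with the 5 miRNAs of nearest pattern as open points. MiR-103-3p runs from -0.39 in NC-1 to 0.35 in GAA-1 with NC-2 and GAA-2 near 0, whereas miR-107-3p lies at -0.25 and -0.17 in NC and at 0.25 and 0.17 in GAA.

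By mean RPM over all samples, miR-103-3p (1263 ± 262 RPM, SD, n = 4) followed miR-23a-3p (1452 ± 392 RPM) and miR-101a-3p (1303 ± 98.3 RPM) and preceded miR-130a-3p (1262 ± 232 RPM) and miR-30b-5p (1246 ± 253 RPM). MiR-107-3p (303 ± 51.4 RPM) followed miR-871-3p (337 ± 93.8 RPM) and miR-872-5p (329 ± 72.1 RPM) and preceded miR-125b-1-3p (302 ± 108 RPM) and miR-193a-3p (293 ± 59.0 RPM). Over all samples, none of these neighbours differed from the member beyond its SD, but they were chosen as next in rank by this mean. This order pools NC and GAA and turned within groups for miR-125b-1-3p, which had 209.9 ± 5.03 RPM in NC against 394 ± 34.0 RPM in GAA (SD, n = 2 each), below miR-107-3p in NC and above it in GAA. The rank of miR-103-3p holds for the deposited values only, and a doubled level would stand above all 4 of its neighbours. The gap between the paralogs in the deposited values was larger than the SD of either.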

How the data were processed

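Small RNA of 2 NC and 2 GAA samples was sequenced. The authors filtered the reads, mapped them to GRCm38 and counted known miRNAs with miRDeep2, and the deposited values are log2(RPM + 1). Base and offset were read from the values, whose RPM rose in equal steps; 95.4 to 96.0% of values were within 0.02 of whole reads. Missing rows were set to 0. Summed reads of all miRNAs gave 1653803 to 3134241 per sample, and 3 reads correspond to 0.530 to 0.634 RPM. The groups were compared with limma 3.58.1 (lmFit, eBayes with trend) in R 4.3.3 on log2(RPM + 1) and on log2(ppm of summed miRNA RPM + 1), over 869 miRNAs without a filter, with Benjamini-Hochberg adjustment. Calls needed an FDR under 0.01 together with a log2 fold change beyond 1 in either direction. A fold change on this scale understates low miRNAs. No count model was fitted to log2 values. The fit was run on simulated data with less noise and larger changes than those of the 3p arms, so its performance on these data was not tested. Ratios were compared with exact permutation tests in scipy 1.17.1. Sequences are RefSeq's, and hosts come from GENCODE M21. No sequencing batch is given, so none was examined.

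Named were the members, 7 related miRNAs, the 4 most abundant of 16 metabolic miRNAs, the 5 nearest patterns and 2 neighbours on each side in rank. Apart from these, some single miRNAs were named after their values were seen. The 16 were miR-33-5p, miR-143-3p, miR-29a-3p, miR-29b-3p, miR-29c-3p, miR-378a-3p, miR-27a-3p, miR-27b-3p, miR-34a-5p, miR-122-5p, miR-375-3p, miR-802-5p, miR-223-3p, miR-320-3p, let-7a-5p and miR-26a-5p. Members and lists were chosen with earlier results of these data known. Alternatives were other divisors, a pseudocount of 0.1, a filter, no trend, replicate blocks, other thresholds and each sample left out.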

Additional observations from a re-analysis of the deposited data

How the results depend on the processing

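The direction of the family's 3p arms in RPM depended on the divisor. The log2 fold change of miR-103-3p was -0.17 with the summed miRNA RPM as divisor, -0.081 with that sum less the 5 most abundant miRNAs, -0.22 with median-of-ratios factors and -0.17 with the replicate block and summed miRNA RPM. That of miR-107-3p was -0.057, 0.029, -0.11 and -0.057 under these settings. Dividing by the summed miRNA RPM, with or without the block, repeats the fit on the share scale and is no separate check. With 1 sample left out, miR-103-3p ranged from 0.073 to 0.54 and miR-107-3p from 0.38 to 0.46. As shares, miR-103-3p ranged from -0.28 to -0.054 and miR-107-3p from -0.21 to 0.094 with 1 sample left out. Neither arm was called under any setting, with adjusted p from 0.19 to 0.97 in RPM and 0.48 to 1.0 as a share. The count of called miRNAs in RPM was 1 with each of these 3 divisors, 6 with the replicate block and summed miRNA RPM, and 0 under the others, where limma gave 91 to 212 miRNAs at an unadjusted p under 0.05. The count on the share scale was 6 with the replicate block, and 0 with a pseudocount of 0.1, without the trend and with any sample left out (0 to 0), with 70 to 132 miRNAs at such an unadjusted p. The cause of these differences was not tested. The correlation of deviations between samples of the same replicate number was -0.15 over 323 miRNAs. With 2 samples per group, crossed numbers give 0.15 by construction, so this cannot decide whether the numbers pair the samples. A balanced block cannot move the mean difference in the paralog ratio from 0.11, whose values within the numbers were -0.24 and 0.47. This mean difference ranged from -0.086 to 0.31 with 1 sample left out. A block with crossed numbers, added after seeing the data, gave 0 calls in RPM, with 212 miRNAs at such a p. Doubling miR-103-3p, also added after seeing the data, moved the mean share of miR-107-3p in the 3p pair from 19.5% to 10.8%. The 5p strands had too few reads for a fold change or an arm ratio under any setting.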
